A study of Mus musculus with 4 samples.

Results

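The genes described here encode the machinery of cell division after DNA replication: the cyclins and kinase that start mitosis, the spindle and its motors, the kinetochores that tie chromosomes to it, the checkpoint that watches the attachment, the proteins that release sister chromatids, and the condensins that compact chromosomes. They were chosen by name, 52 genes in all, with earlier results of these data known. Each was read at the probe set with the highest mean over the arrays among those whose only gene symbol is that gene. Of the 52, 51 were measured, among 18194 genes tested on the arrays. Ccnb1, the gene of cyclin B1, had no probe set of that kind in the annotation used and was not analysed here. None of the 51 lay below the highest Bacillus control, a bacterial sequence with no mouse target, on all 4 arrays.

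Expression was measured on 4 Affymetrix arrays, 2 labelled WT and 2 labelled Alox15-/-, with RNA of bone marrow cells sorted as Lin-c-Kit+Sca-1+ from C57BL/6 (B6) mice aged 8 weeks. The labels call these cells HSCs, haematopoietic stem cells, and the gate also holds multipotent progenitors. Alox15 encodes arachidonate 15-lipoxygenase, and the Alox15-/- mice carry a disruption of it whose construction is not described in the labels; no treatment or other allele is named for either group. The labels name the replicates as biological but state neither animals nor pools, so the p-values rest on array-to-array spread, some of which may be technical.

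Most stem cells in adult marrow rest outside the cell cycle, while multipotent progenitors divide more often, so transcripts of mitotic genes in such a gate depend on how many cells are between the end of replication and division. Most of these genes are transcribed late in the cycle. In resting cells the DREAM complex keeps them silent, and in late cycle B-Myb and FOXM1, which bind through the MuvB proteins, switch them on. The proliferation marker Ki-67, the product of Mki67, coats mitotic chromosomes and keeps them apart.

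A pair of short elements marks many promoters of this class, the CCAAT box bound by NF-Y and the cell cycle homology element TTTGAA bound by MuvB. The promoters of 5 genes are shown because they belong to the measured extremes and to textbook examples of the class: Mki67 and Bub3, the only members that read lower in the arrays labelled Alox15-/-, Pttg1, with the largest positive difference, and Cdk1 and Cdc20, both with positive differences. Each line holds 120 bases read 5′ to 3′ on the gene's strand, from RefSeq, build GRCm38.p6, with CCAAT and TTTGAA on either strand (ATTGG and TTCAAA on the other) in capitals. The Mki67 stretch, chr7:135716460-135716579 on the minus strand, ends 81 bases before the annotated start. The others end at the base before it: Bub3 at chr7:131560250-131560369 (plus strand, the first of 2 starts), Cdk1 at chr10:69352913-69353032, Cdc20 at chr4:118437344-118437463 and Pttg1 at chr11:43425982-43426101 (all minus strand).
Mki67: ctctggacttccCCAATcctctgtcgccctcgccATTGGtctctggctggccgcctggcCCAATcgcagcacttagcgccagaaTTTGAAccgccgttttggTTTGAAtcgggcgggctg
Bub3: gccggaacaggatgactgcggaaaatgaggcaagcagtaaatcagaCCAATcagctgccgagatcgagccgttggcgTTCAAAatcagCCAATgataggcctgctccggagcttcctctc
Cdk1: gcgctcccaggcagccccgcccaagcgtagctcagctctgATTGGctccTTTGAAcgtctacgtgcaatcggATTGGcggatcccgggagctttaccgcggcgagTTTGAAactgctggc
Cdc20: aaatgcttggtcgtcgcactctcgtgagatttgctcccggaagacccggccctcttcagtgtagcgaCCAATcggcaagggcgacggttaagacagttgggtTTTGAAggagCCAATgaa
Pttg1: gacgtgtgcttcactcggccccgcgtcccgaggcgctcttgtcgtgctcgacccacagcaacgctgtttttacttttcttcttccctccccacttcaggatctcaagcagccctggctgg

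The Mki67 stretch holds 3 CCAAT and 2 TTTGAA matches, Bub3 2 and 1, Cdk1 2 and 2, Cdc20 2 and 1, and Pttg1 none of either. The Mki67 stretch was placed further from the start than the others, so these counts do not cover like positions. In the whole window from 250 bases before to 50 after the start, Mki67 held 3 and 2, Bub3 2 and 1 and Cdk1 3 and 2. Cdc20 held 2 and 1 there, and Pttg1 0 and 0. Over windows of 300 bases, from 250 before to 50 after the start, 44 members had an entry in the RefSeq promoter table. CCAAT was found in 34 of them (77.3%) and in 41.1% of all 27025 genes in that table. TTTGAA was found in 33 members (75%) and in 20.2% of all genes, and both together in 29 members (65.9%) and in 7.97% of all genes. In the 250 bases before the start alone, TTTGAA was found in 18 members (40.9%) and in 18.3% of all genes, and both in 16 members (36.4%) and in 6.45% of all genes. CCAAT stayed at 34 members there, with 37.5% of all genes. Each motif was searched for separately, and matches of the 2 motifs may overlap. A match is a description of letters, not a site of binding. Measured members with TTTGAA in the window had a median difference of 0.29 on the log2 scale over 33 genes, and those without it 0.30 over 10. For CCAAT these medians were 0.28 over 33 genes and 0.38 over 10.

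Alox15 itself was read first as a check on the labels, and it went against them. Its only probe set read 4.63 and 4.35 in WT, against 10.68 and 10.75 in the arrays labelled Alox15-/-. The mean of the latter was 53.5-fold above the highest Bacillus control, averaged over the WT arrays. Both WT values lay below the highest Bacillus control of their array. The labels do not say how Alox15 was disrupted, so whether the disruption reaches the sequence read by this probe set is not known. Whether the labels of the 2 groups are exchanged was not tested. Each direction below is that of the arrays as labelled, and exchanged labels would turn every sign. It was the 1 gene of 18194 (0.0055%) that passed the threshold of 0.05 on limma adjusted p, and all differences that follow are log2 values of the arrays labelled Alox15-/- minus WT, n = 2 each.

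As a set, the mitotic genes read slightly higher in the arrays labelled Alox15-/-. Of the 51, 49 had a positive difference and 2 a negative one, with a median of 0.29, or 1.23-fold. Over all genes tested 53.8% had a positive difference and the median was 0.02. For 41 members both arrays labelled Alox15-/- lay above both WT arrays, against 21.4% of all genes, and for 1, Mki67, both lay below, against 17.1%. None passed the threshold on limma adjusted p, the lowest being 0.373 for Pttg1. At an unadjusted limma p under 0.05 there were 15 members higher (4.2% of all genes) and 1 lower (3.57%). Calls depended on the variance model. With a limma prior variance that depends on the mean level, 2 members passed, Pttg1 at adjusted p = 0.00325 and Mki67 at 0.0114. Without variance moderation not even Alox15 passed, at adjusted p = 0.717 in the linear fit. The counts over all genes in these fits are given in the last section. Members share the 4 arrays, so these counts describe the list without testing it. In a bulk sample, fewer cells of a type and less RNA per cell cannot be told apart.

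**Figure D1:**
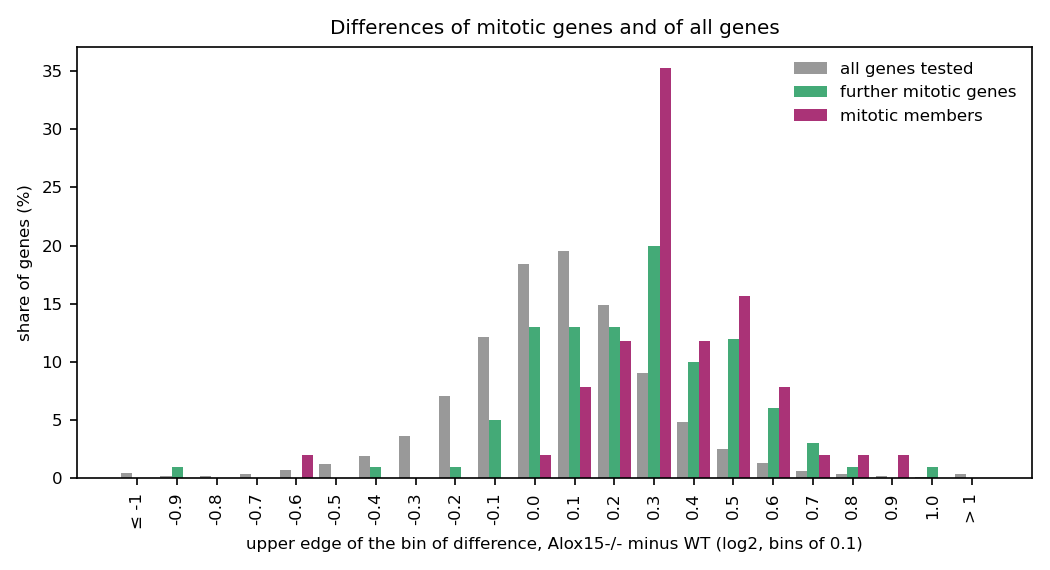
Share of genes (percent, vertical axis) in bins of 0.1 of the log2 difference, arrays labelled Alox15-/- minus WT (horizontal axis, upper edge of each bin), for the 18194 genes tested, 100 further mitotic genes and the 51 members. The members peak between 0.2 and 0.3, with 35.3% of them there against 9.06% of all genes, and 1 member, Mki67, lies between -0.7 and -0.6.

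The 2 WT arrays were not equal in these genes. WT replicate 1 was the lowest of the 4 arrays for 38 of the 51 members, and WT replicate 2 was the lowest for 12. The median of WT replicate 2 minus WT replicate 1 was 0.12 over the members and -0.01 over all genes. Between the arrays labelled Alox15-/- the median gap was 0.03. Without WT replicate 1 the members' median was 0.24, with 48 of 51 positive, and without WT replicate 2 it was 0.37, with 49 positive. For 24 of the 51 members, leaving out 1 array moved the difference by over 1.5 times. Leaving out WT replicate 1 made it smaller by that much, or turned its sign, for 15 members, and leaving out replicate 2 of the arrays labelled Alox15-/- did so for 9. The sign turned in 3 members, Bub3, Ttk and Kif23.

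**Figure D2:**
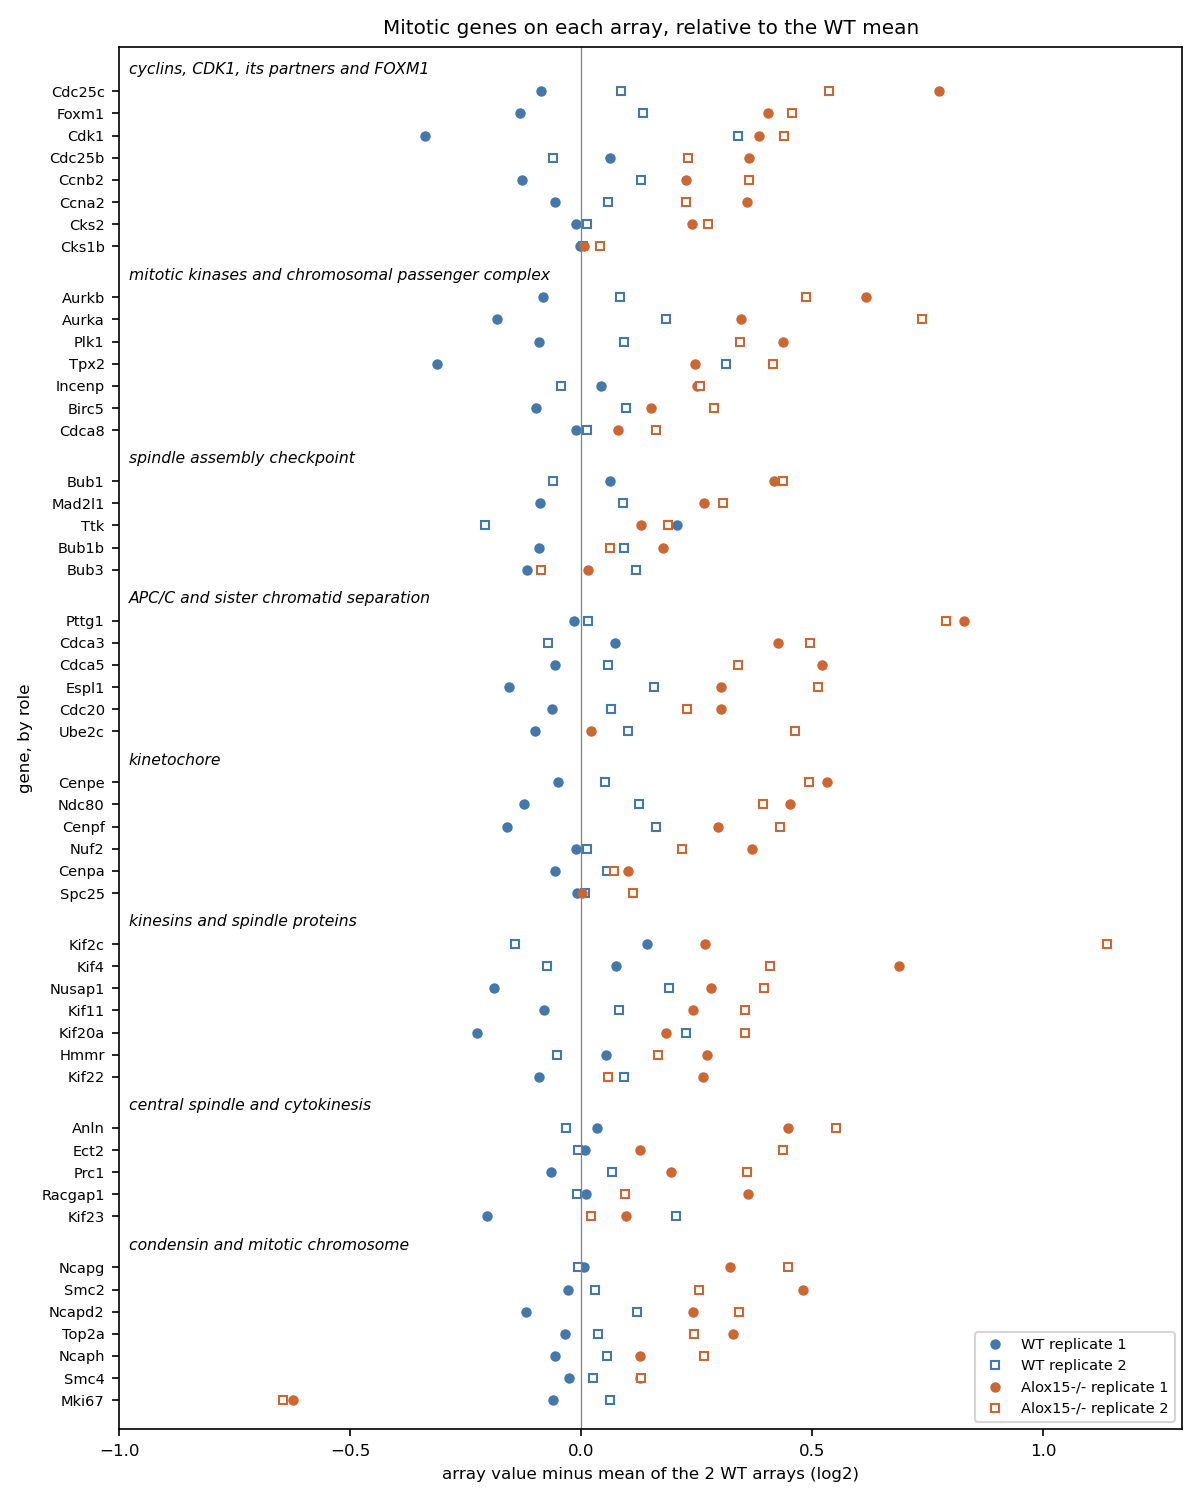
Each of the 51 genes on each array, as the log2 value minus the mean of the 2 WT arrays (horizontal axis), grouped by role (vertical axis). Circles are replicate 1 and squares replicate 2, blue for WT and orange for the arrays labelled Alox15-/-. Orange points lie right of the blue ones for 41 genes, and for Mki67 both lie left, at -0.62 and -0.65.

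Among the cyclins, CDK1 and the proteins that switch it on, all 8 measured genes had positive differences, with a median of 0.30. The groups did not overlap for any of them, against 21.4% of all genes with both arrays labelled Alox15-/- above both WT arrays. That share of all genes also stands beside the overlap counts of the role groups that follow. Cdc25c, a phosphatase that removes the inhibitory phosphates of CDK1, read 7.68 and 7.85 in WT, against 8.54 and 8.30 in the arrays labelled Alox15-/-. That gap of 0.66 ± 0.15 (SE) was about as wide at its second probe set, 0.70. Foxm1, the transcription factor that drives many of these genes, read 7.48 and 7.75 in WT against 8.02 and 8.07, a difference of 0.43 ± 0.15. The related phosphatase gene Cdc25b read 7.42 and 7.30 against 7.72 and 7.59. Its difference of 0.30 ± 0.14 had a 95% interval from -0.05 to 0.64. Cdk1, the kinase of mitotic entry, read 9.39 in WT replicate 1, well below the 10.07 of WT replicate 2 and the 10.12 and 10.17 of the other group. Its difference of 0.41 ± 0.24 was 0.07 without WT replicate 1. At the low end stood Cks1b, a small subunit of CDK complexes, at 0.02 ± 0.13, while its paralog Cks2 stood at 0.26. The Cks1b groups were barely apart, at 12.5162 and 12.5225 in WT against 12.5262 and 12.5588.

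The mitotic kinases and the chromosomal passenger complex, which corrects faulty spindle attachments, had 7 of 7 positive differences and a median of 0.33. Aurkb, the kinase of that complex, read 8.83 and 8.998 in WT, against 9.53 and 9.40 in the arrays labelled Alox15-/-, a difference of 0.55 ± 0.14. Its second probe set gave 0.85. The other subunits of the complex were closer to 0, Incenp at 0.25, Birc5 at 0.22 and Cdca8 at 0.12. Plk1, which acts at centrosomes and kinetochores, read 7.09 and 7.27 against 7.62 and 7.52, or 0.39 ± 0.14. Aurka, the spindle pole kinase, read 8.54 and 8.90 against 9.07 and 9.46. The higher WT array and the lower array labelled Alox15-/- were only narrowly apart for Aurka, whose difference was 0.54 ± 0.21. It was 0.36 without WT replicate 1 and 0.34 without replicate 2 of the other group, and the second Aurka probe set gave 0.23 with overlapping groups. Tpx2, which activates Aurora A on the spindle, was the 1 gene of this group whose arrays overlapped.

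The spindle assembly checkpoint, which delays anaphase until all kinetochores are attached, had the smallest median of the 8 role groups, 0.16, with 4 of 5 genes positive. For 2 of the 5, both arrays labelled Alox15-/- lay above both WT arrays, against 21.4% of all genes. Bub1, a checkpoint kinase at the kinetochore, read 8.23 and 8.11 in WT, against 8.58 and 8.60 in the arrays labelled Alox15-/-, a difference of 0.43 ± 0.13. Mad2l1, the checkpoint protein that holds CDC20, read 9.18 and 9.36 against 9.54 and 9.58. Ttk, the kinase at the top of the pathway, read 9.12 and 8.70 against 9.04 and 9.10, so the groups overlapped and the difference of 0.16 was -0.05 without WT replicate 2. Its second probe set gave 0.28 without overlap. Bub3, a scaffold of BUB1 and BUBR1, differed by -0.04 ± 0.15 with overlapping groups. At 3 of its other 4 probe sets Bub3 gave -0.27 to -0.22 with both arrays labelled Alox15-/- below both WT arrays. The dimmest of these 3 lay below the highest Bacillus control on 2 arrays. The last Bub3 probe set, below the highest Bacillus control on all arrays, gave 0.13.

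Genes of the anaphase-promoting complex pathway and of sister chromatid release had the largest median, 0.42, with 6 of 6 positive. Pttg1 encodes securin, the inhibitor that holds separase until anaphase. It read 11.60 and 11.63 in WT, against 12.44 and 12.40 in the arrays labelled Alox15-/-, so the gap between groups was far wider than the gap within them. The difference was 0.81 ± 0.13, or 1.75-fold, with limma adjusted p = 0.373 (0.00325 to 0.952 over the alternatives) and higher in 2 of 2 arrays. Both other Pttg1 probe sets gave larger values, 0.84 and 1.12. Espl1, the separase that securin inhibits, differed by 0.41.

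Cdca3, an adaptor in the destruction of the mitotic inhibitor WEE1, read 8.81 and 8.66 against 9.16 and 9.23, or 0.46 ± 0.13. Cdca5, the gene of sororin, which protects cohesion of sister chromatids, read 10.17 and 10.29 against 10.75 and 10.57, or 0.43 ± 0.14. The coactivator Cdc20 differed by 0.27 and the ubiquitin-conjugating enzyme gene Ube2c by 0.24. Ube2c overlapped between groups, the only gene of these 6 to do so.

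The kinetochore genes had 6 of 6 positive differences and a median of 0.33. Cenpe, a kinesin that moves chromosomes to the spindle equator, read 9.88 and 9.98 in WT, against 10.46 and 10.43 in the arrays labelled Alox15-/-, a difference of 0.51 ± 0.13, and 0.33 at its second probe set. Ndc80, whose product grips microtubule ends, read 9.24 and 9.49 against 9.82 and 9.76, or 0.42 ± 0.15. Its partner Nuf2 stood at 0.29 and Spc25, of the same complex, at 0.06 with overlapping groups. Cenpf, a large protein of the outer kinetochore, read 10.25 and 10.57 against 10.71 and 10.84. Its difference of 0.36 was 0.20 without WT replicate 1, and its other probe sets gave 0.31 and, with overlapping groups, 0.04. Cenpa, the histone variant that marks centromeres, differed by 0.09 at the probe set used and by 0.38 and 0.30 at the others.

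Kinesins and spindle proteins were likewise positive in 7 of 7 genes, with a median of 0.30. The groups overlapped for 2 of them, Kif20a at 0.27 and Kif22 at 0.16. Without WT replicate 1 these were 0.04 and 0.07. Kif4, a motor that rides on chromosome arms, read 7.79 and 7.64 in WT, against 8.41 and 8.13 in the arrays labelled Alox15-/-, or 0.55 ± 0.16. Kif2c, which takes microtubule ends apart, read 8.75 and 8.46 against 8.87 and 9.74. Its difference of 0.70 ± 0.31 rested largely on replicate 2 of the arrays labelled Alox15-/- and was 0.27 without it. The other 3 Kif2c probe sets gave 0.50 to 1.25, with no overlap at any. Kif11, the motor that pushes spindle poles apart, read 10.98 and 11.15 against 11.31 and 11.42. Hmmr, a spindle pole protein singled out after its values were seen, differed by 0.22 at the probe set used. Of its other 4 probe sets, 3 gave 0.24 to 0.38 and the last gave 1.44.

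In the central spindle and cytokinesis group, which builds the cleavage furrow, 5 of 5 genes were positive with a median of 0.28. Anln, the furrow scaffold anillin, read 8.56 and 8.49 in WT, against 8.97 and 9.08 in the arrays labelled Alox15-/-, or 0.50 ± 0.13. Its second probe set gave 0.23 with overlapping groups. Prc1, which bundles the central spindle, read 9.50 and 9.63 against 9.76 and 9.92. Ect2, which activates RhoA at the furrow, read 8.77 and 8.75 against 8.89 and 9.20. The Ect2 difference of 0.28 was 0.13 without replicate 2 of the arrays labelled Alox15-/- and 0.44 without replicate 1. The 95% intervals of Prc1 and Ect2 ran from -0.08 to 0.63 and from -0.11 to 0.68. Kif23, the kinesin that works with RACGAP1, was the only gene here with overlapping groups at the probe set used. It differed by 0.06, or by -0.15 without WT replicate 1. Its other probe sets gave 0.36 and 1.21 without overlap, the latter below the highest Bacillus control on 1 array.

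Condensins and Top2a, which shape and untangle mitotic chromosomes, were all positive. Ncapg, a condensin I subunit, read 10.41 and 10.40 in WT, against 10.73 and 10.85 in the arrays labelled Alox15-/-, or 0.38 ± 0.13. Smc2, an ATPase shared by both condensins, read 10.33 and 10.39 against 10.84 and 10.61, or 0.37 ± 0.14. Its partner Smc4 differed by 0.13, Ncapd2 by 0.29, Ncaph by 0.20 and Top2a by 0.29. None of these groups overlapped, where 21.4% of all genes were apart in this direction. The 95% interval of Smc2 ran from 0.00 to 0.73. Of its 4 other probe sets, 3 gave 0.29 to 0.41 and the last gave 0.03 with overlapping groups. The second Ncapg probe set gave 0.76.

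Mki67, unlike 49 of the other 50 members, had a negative difference, and Bub3 was the other gene below 0. Mki67 read 12.38 and 12.50 in WT, against 11.82 and 11.80 in the arrays labelled Alox15-/-. Both of the latter were below both WT arrays, and the replicates of each group were within 0.12 of each other. The difference was -0.63 ± 0.13, or 1.55-fold lower, with a 95% interval from -0.96 to -0.30. Its limma adjusted p was 0.503 and ran from 0.0114 to 0.952 over the alternatives, and it was lower in 2 of 2 arrays. Without any 1 array the difference ran from -0.70 to -0.57. Of all genes tested, 1.63% had a difference as low or lower.

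Set against each gene's own WT mean, Mki67 lay at -0.62 and -0.65 in the arrays labelled Alox15-/-, and the other 50 genes lay between 0.00 and 0.83 in replicate 1 and between -0.09 and 1.14 in replicate 2. All 50 were thus above Mki67 in both arrays. The median of the other 50 was 0.28 in replicate 1 and 0.34 in replicate 2. The difference between Mki67 and the rest was not tested. The annotation used gives Mki67 only 1 probe set, so no second reading of the gene was available for comparison, unlike for 37 of the other members.

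Those 37 genes had several probe sets each, and the 51 genes had 119 in all. Of the 68 probe sets not used above, 60 were positive and 8 negative, with a median of 0.27. Leaving out the 8 that were below the highest Bacillus control on all arrays, 55 were positive and 5 negative. In 31 of the 37 genes every probe set had the same sign. The exceptions were Bub3, Cdca3, Ncapd2, Spc25, Top2a and Tpx2, each with 1 probe set of the opposite sign. For Cdca3, Top2a and Tpx2 as for Bub3, that probe set was below the highest Bacillus control on all arrays, and its readings are near background. For Ncapd2 it gave -0.25 and for Spc25 -0.06.

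**Figure D3:**
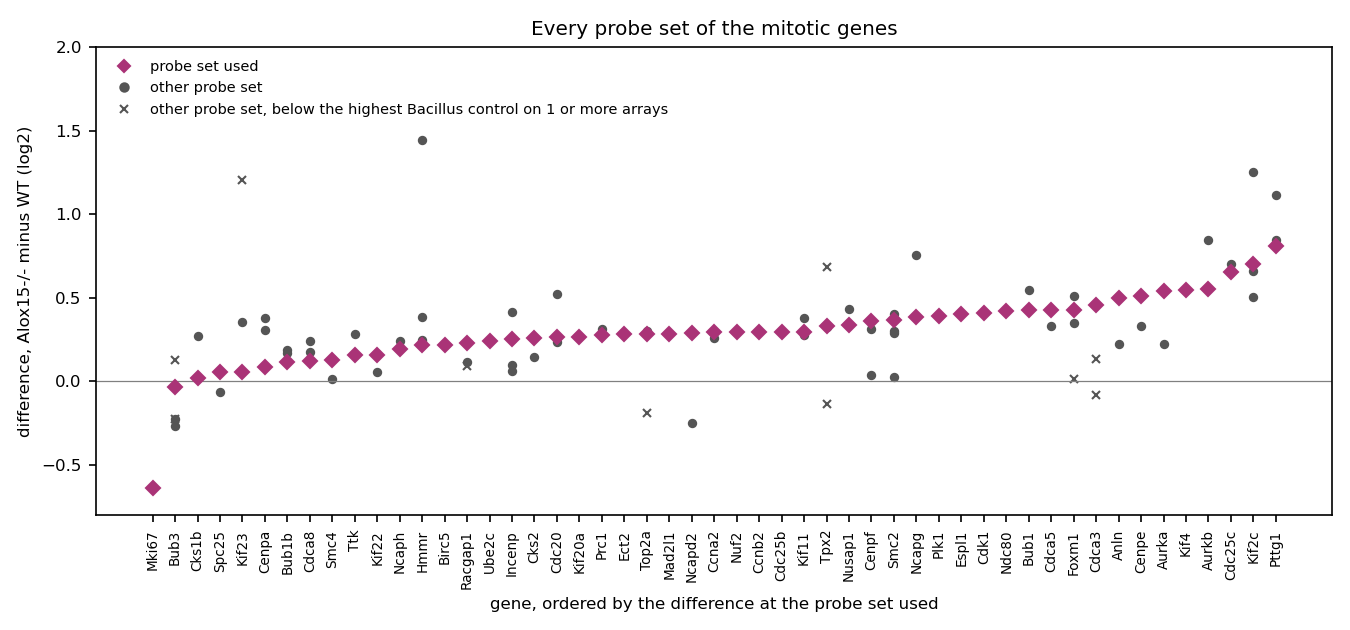
Log2 difference, arrays labelled Alox15-/- minus WT (vertical axis), at each of the 119 probe sets of the 51 genes (horizontal axis, ordered by the probe set used). Diamonds are the probe sets used, circles other probe sets, and crosses others below the highest Bacillus control on 1 or more arrays. Of the 68 others, 60 lie above 0, and Mki67 has a single probe set at -0.63.

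A wider list of mitotic genes, none of them members, was read in the same way. Of 102 listed, 100 were measured, 79 had a positive difference and the median was 0.22, with 52 genes whose groups did not overlap on the higher side (21.4% of all genes) and 4 on the lower (17.1%). None passed the threshold on limma adjusted p, while 18 were higher (4.2% of all genes) and 0 lower (3.57%) at an unadjusted p under 0.05. The 28 further kinetochore and centromere genes were the most uniform group, with 27 positive and a median of 0.23. Cenpw, a histone-fold protein of the inner kinetochore, read 7.42 and 7.47 in WT, against 7.88 and 8.13 in the arrays labelled Alox15-/-. Ska3, which couples kinetochores to microtubules, differed by 0.50.

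In the further spindle, kinesin and cytokinesis group 18 of 22 were positive with a median of 0.25. Aspm, a spindle pole protein, stood at 0.49 and Depdc1b at 0.66, or 0.39 without WT replicate 2. The negative extreme was Kif14, a kinesin of the midbody singled out after its values were seen, which read 5.69 and 7.45 in WT, against 5.51 and 5.81 in the arrays labelled Alox15-/-. Its groups overlapped, its WT arrays lay far apart, and its difference of -0.91 was -0.026 without WT replicate 2. Further mitotic kinases and checkpoint genes were positive in 11 of 13, with a median of 0.29.

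Haspin, whose kinase marks histone H3 to recruit the passenger complex, had the largest difference of the wider list. It read 7.45 and 7.33 in WT against 8.34 and 8.36, or 0.96 ± 0.13 with limma adjusted p = 0.367. Bora, an activator of PLK1, stood at 0.46.

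Cohesin and condensin II genes, many of which act throughout the cell cycle, were mixed, with 8 of 14 positive and a median of 0.07. Sgo2a, a shugoshin that guards centromeric cohesion, read 7.58 and 7.62 in WT, against 8.26 and 8.13 in the arrays labelled Alox15-/-, and Ncapg2 of condensin II stood at 0.45. Subunits and regulators of the anaphase-promoting complex were also near 0, with 10 of 15 positive and a median of 0.09. There Ccnf, the F-box cyclin, differed by 0.73 ± 0.20, or by 0.49 without WT replicate 1. Ube2s, with overlapping groups, differed by 0.31, and by 0.074 to 0.54 when 1 array was left out. The regulators MuvB, B-Myb and the atypical E2Fs had 5 of 8 positive and a median of 0.23, with the MuvB subunit Lin54 at 0.66 ± 0.14 and E2f7 at 0.65 ± 0.28, which was 0.28 without WT replicate 1. Mybl2, the gene of B-Myb itself and singled out after its values were seen, differed by -0.42 with overlapping groups, and by -0.84 to -0.0013 when 1 array was left out.

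Genes of earlier cell cycle steps had smaller medians than the members, by an amount that depended on the WT array left out. DNA replication genes had 32 of 41 positive (78.0%, against 79% of the further mitotic genes) and a median of 0.13. Without WT replicate 1 their median was 0.175, against 0.24 for the members, and without WT replicate 2 it was 0.085, against 0.37. WT replicate 2 was the lowest array for 26 of the 41, whereas WT replicate 1 was for most members. Thymidine kinase gene Tk1 stood at 0.58 and helicase gene Mcm2 at 0.52. G1 cyclin and E2F genes had 10 of 12 positive and a median of 0.13, with E2f2 at 0.50 and Ccne2 at 0.75, or 0.44 without WT replicate 1. The G1 cyclin and E2F median was 0.16 without WT replicate 1 and 0.18 without WT replicate 2. The difference between these medians and that of the mitotic genes was not tested.

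Of the mitotic genes, 5 lie on chromosome 11 with Alox15, and their median was 0.29, as was that of the other 46. Their means were unlike, 0.42 for the 5, which ran from 0.22 to 0.81, and 0.29 for the 46. Both arrays labelled Alox15-/- lay above both WT arrays for all 5 and for 36 of the 46 (21.4% of all genes). Aurkb, at 0.55, is the nearest member, 68 measured genes from Alox15 in the RefSeq gene order. Pttg1, with the largest member difference, lies 352 away. Haspin, with the largest difference of the wider list, 0.96, is 53 away. Anapc11, of the wider list and also on chromosome 11, differed by -0.08. Whether the region around Alox15 differs between the groups of mice was not tested.

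Markers of the sorted cells and of other cell types were read in the same way. Several lists differed between the groups, and the erythroblast and B cell lists were mixed. Kit, of the sorting gate, read 10.63 and 10.48 in WT and lower, at 10.34 and 10.23, in both of the other arrays, a difference of -0.27 ± 0.14. Ly6a, of the gate, was not analysed here. Stem cell genes were higher in 2 of 9 and lower in 7, with a mean level of 9.86 to 9.90 in WT against 9.60 to 9.66. Granulocyte-monocyte progenitor genes were higher in 8 of 9, at 8.83 to 8.88 in WT against 9.37 to 9.50. Mature neutrophil genes were higher in 9 of 9, at 5.70 to 6.51 against 6.81 to 7.17, with Mmp8 below the highest Bacillus control on all arrays and Lcn2 on 2. WT replicate 1, the lowest array for most mitotic genes, was also the lowest for 8 of the 9 neutrophil genes, whose median difference of 0.83 was 0.47 without it.

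Mast cell and basophil genes were higher in 6 of 6, at 6.21 to 6.83 against 6.97 to 7.15, with Fcer1a below that control on all arrays. WT replicate 2 was the lowest array for all 6 of them, and their median difference of 0.65 was 0.98 without WT replicate 1 and 0.26 without WT replicate 2. B cell genes were higher in 4 of 7, at a mean level of 6.18 to 6.26 against 6.31 to 6.35, with Ms4a1 below the control on all arrays and the other genes above it on all. T and NK cell genes were higher in 5 of 7, at 6.20 to 6.21 against 6.29 to 6.37, with Cd3e and Cd3g below the control on all arrays and the other 5 above it. For erythroblast genes, another dividing population of marrow, 3 of 9 were higher, with differences from -0.30 for Epb42 to 0.87 for Klf1. Both were singled out after their values were seen. The mean level of the 9 was 6.75 to 6.77 in WT and 6.77 to 6.80 in the other group. Hba-a1 and Rhag lay below the control on all arrays. The Gapdh control probe sets at the 2 ends of the transcript differed by 2.38 ± 0.01 (SD, n = 2) in WT, and by 2.15 ± 0.02 (SD, n = 2) in the other group. The same gap for the Actb control probe sets was -0.21 in both groups, with a difference of 0.0056. The part of these cell types and of RNA quality in the mitotic differences was not tested.

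**Figure D4:**
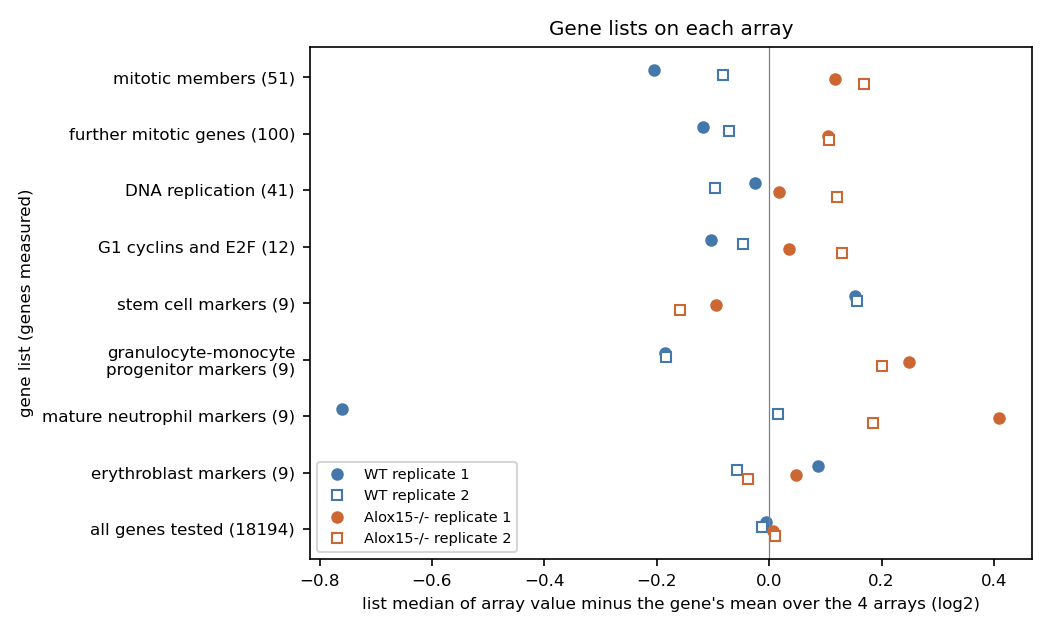
Median over each gene list of the array value minus the gene's own mean over the 4 arrays (log2, horizontal axis), one row per list (vertical axis) and one point per array, blue for WT and orange for the arrays labelled Alox15-/-, circles for replicate 1 and squares for replicate 2. The mitotic members lie at -0.20 and -0.08 in WT and at 0.12 and 0.17 in the arrays labelled Alox15-/-, stem cell genes lie the other way round, and WT replicate 1 is far below the rest for neutrophil genes, at -0.76.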

How the data were processed

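Per the submitters' processing notes, the authors' deposited log2 values come from RMA in Affymetrix Expression Console 1.1. RMA corrects background, makes array distributions equal and gives 1 value per probe set. Per the labels' protocols, RNA was copied with random primers before amplification. No genome build is named there. Of 45101 probe sets, 34958 had 1 gene symbol in the platform annotation, 932 several and 9211 none. One probe set per gene, the highest mean over the 4 arrays, left 18194 genes, with no filter on dim genes. Group differences came from lmFit and eBayes of limma 3.58.1 (R 4.3.3), without a replicate block, and two-sided p-values were adjusted over all genes by Benjamini-Hochberg. The code was tested on simulated data. Individually described genes are those with the largest absolute moderated t in each role group (3 per group) or wider list (2 per list). Alox15, control probe sets and members with probe sets of opposite sign are also described. Other genes, among them Cdk1, Cks1b and Kif23, were described outside that rule, with their values known. Members and lists were chosen with earlier results of these data known. The number of arrays limits the precision. Same-numbered replicates are not said to share animals or days, and the correlation of their deviations across genes was -0.02. Alternatives covered normalization, dim-gene filters, variance moderation, array weights, probe set choice, a replicate block and leaving out each array. Figures used matplotlib 3.10.9.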

Additional observations from a re-analysis of the deposited data

How the results depend on the processing

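Over the alternatives, the members' median stayed between 0.24 and 0.37 (both reached by leaving out 1 WT array), and 46 to 50 of the 51 members were positive. Mki67 stayed between -0.70 and -0.57, both ends again reached by leaving out 1 WT array. Probe set choice and variance moderation could not change this difference, because Mki67 has 1 probe set and moderation alters only the error. With a mean-dependent prior variance 22 genes passed, 2 of them members, Mki67, at -0.63, with adjusted p = 0.0114 and Pttg1, at 0.81, with 0.00325. The probe set with the lowest mean gave 3 genes and no moderation 0 (1204 at unadjusted p under 0.05, with 1 gene of identical replicates left out). Leaving out any 1 array gave 0 genes each time, treating the single array left in a group as varying as much as the pair in the other. The further mitotic median was 0.18 to 0.23 in those fits. Bub3 was 0.13 at its dimmest probe set and -0.15 to 0.081 when 1 array was left out, above 0 without WT replicate 2 (0.081) or Alox15-/- replicate 2 (0.015). Ttk was -0.049 to 0.37 when 1 array was left out, below 0 without WT replicate 2. The replicate block kept 1 gene past the threshold and 0 members, with adjusted p = 0.524 for Mki67, and changed no call. Without the 5 members on chromosome 11, chosen after seeing the data, the median was 0.29, with 44 of 46 positive. Having 2 arrays per group limits the precision for single genes. The causes of these changes were not tested.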
